A study of Mus musculus with 27 samples.

Results

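The genes described here are 32 genes of the rod photoreceptor, out of 40129 genes in the deposited table. They were chosen by name for their place in phototransduction and in the light-sensitive outer segment, with earlier results of these data known. All 32 were found, and all 32 passed the filter on low values that left 27137 genes for testing. The mice were wild-type C57BL/6 pups of both sexes (substrain C57BL/6J in the study's methods). Pups of the oxygen-induced retinopathy (OIR) model were kept in high oxygen during the second postnatal week, returned to room air, and killed at p14 or p17 (postnatal days 14 and 17), and control pups (nOIR) were kept in room air and killed at the same ages. High oxygen makes central retinal vessels regress, the central retina is then short of oxygen in room air at p14, and new vessels grow at p17. Each sample was the whole retina of 1 mouse, from 1 eye or from both eyes pooled, after perfusion of the blood vessels with saline. Total RNA of the bulk tissue was sequenced from 13 mice at p14, of which 7 were nOIR and 6 OIR, and from 14 at p17, of which 6 were nOIR and 8 OIR. By the study's methods, the mice of every group came from fewer litters than there were mice, and the labels do not tie a mouse to its litter. All tests here, exact permutation tests included, therefore treat littermates as separate mice. Their p-values measure the spread between mice, littermates included, and not the spread between litters.

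Rods turn absorbed light into an electrical signal through a short chain of proteins. A light-activated pigment molecule activates the G protein transducin, transducin releases the brake on a cyclic GMP phosphodiesterase, and the fall in cyclic GMP closes a cation channel in the outer segment membrane. Arrestin, kinases and GTPase-accelerating proteins then shut the chain off, guanylate cyclases rebuild cyclic GMP, and retinoid enzymes clear the bleached chromophore. In mice the outer segments grow in the weeks after birth under the control of the transcription factors Crx, Nrl and Nr2e3. Several of the 32 genes are not particular to rods: cones also use Crx, Prph2, Gnb5 and Guca1a, for example, and Gnb1 is used by most cells.

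The deposited values are normalized reads, that is, read counts divided by 1 size factor per mouse. Recovered read totals ran from 17029536 to 33593428 per mouse. The lowest total was that of OIR p17 mouse S1 alone, and the next lowest was 24641221, in OIR p14 mouse S1. The study left mouse S4 of nOIR p14 out as an outlier with high levels of the lens genes Cryaa and Cryba1. It was left out here too, so that 26 mice were compared. Among these, nOIR p14 S5 (6771 normalized reads of Cryaa) and OIR p17 S2 (12404), S7 (7456) and S8 (8876) lay above the 6142 of S4. In bulk tissue, fewer cells of a type and less RNA per cell cannot be told apart. Markers of other cells moved with the groups: at p17, 6 of 8 microglia genes and 6 of 8 endothelial genes were higher in OIR than in nOIR retinas by limma (adjusted p below 0.05), and 8 of 12 genes of ON bipolar cells, the neurons that rods signal to, were lower. Lens genes varied strongly between mice, from summed levels of 1462 to 46551 normalized reads over 12 genes. By group the sum ran from 1462 to 27953 in nOIR p14, from 1909 to 11250 in OIR p14, from 1746 to 17789 in nOIR p17 and from 1935 to 46551 in OIR p17. Of the 12 lens genes, Cryaa, Crybb2, Crygs and Mip were at 0 in some mouse and none was at 0 in all mice.

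Rod genes were among the most abundant transcripts of these retinas. By mean normalized reads, 21 of the 32 stood among the 100 highest of all genes tested. Together they took between 6.51% and 7.54% of a mouse's normalized reads in nOIR p14, with a median of 7.10%. In OIR p14 the share ran from 5.87% to 7.04%, with a median of 6.28%. In nOIR p17 it ran from 6.61% to 8.08%, with a median of 7.77%, and in OIR p17 from 6.13% to 8.19%, with a median of 6.85%. The ranges of OIR and nOIR mice overlapped at both ages, with the lower median in OIR each time. In each of the 4 groups, the mouse with the lowest rod gene share was also the mouse with the lowest summed level of 10 genes of the retinal pigment epithelium, the layer that touches the outer segments. Those lowest sums were 2404 in nOIR p14, 3682 in OIR p14, 1577 in nOIR p17 and 2452 in OIR p17. The mice with the highest rod gene share had 8837, 4600, 7977 and 7236 in the same order. Only in OIR p17 was that the highest sum of the group. The highest sums elsewhere were 9693 in nOIR p14, 4952 in OIR p14 and 8677 in nOIR p17. The coincidence at the low end was noticed after the values were seen. The same coincidence of lowest mice was counted in 3 of 4 groups for the cone, Mueller glia, microglia and lens lists. It was counted in 2 of 4 for the lists of other photoreceptor genes, amacrine cells and retinal ganglion cells, in 1 of 4 for endothelium and in 0 of 4 for the ON bipolar list. The part of pigment epithelium in the rod gene values was not tested.

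Divided by the exonic length of each gene in GENCODE M21, Gnat1, the alpha subunit of rod transducin, had the highest level of the 32 in all 4 groups. In nOIR p17 it reached 152390 ± 17283 normalized reads per kb (SD, n = 6). Rcvrn followed with 63577 ± 8660, Pde6g with 54831 ± 7310, Prph2 with 52130 ± 4733 and Rom1 with 45657 ± 4599 on the same scale. The levels of Rcvrn, Pde6g and Prph2 lay within the sum of their SDs of each other, while Gnat1 stood far above all 3. At the low end were Rdh8 with 308 ± 43.9, Gucy2f with 403 ± 85.8 and Esrrb with 408 ± 34.3 normalized reads per kb. Gucy2f lay within the sum of the SDs of either neighbour, while Rdh8 and Esrrb lay farther apart than theirs. Without strand in the library kit, reads of Gnb5 and Prom1 cannot be separated from those of antisense genes that share 7.96% and 5.91% of their exonic bases. Nr2e3 shares 1.81% of its exonic bases with a noncoding gene on its own strand.

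**Figure D1:**
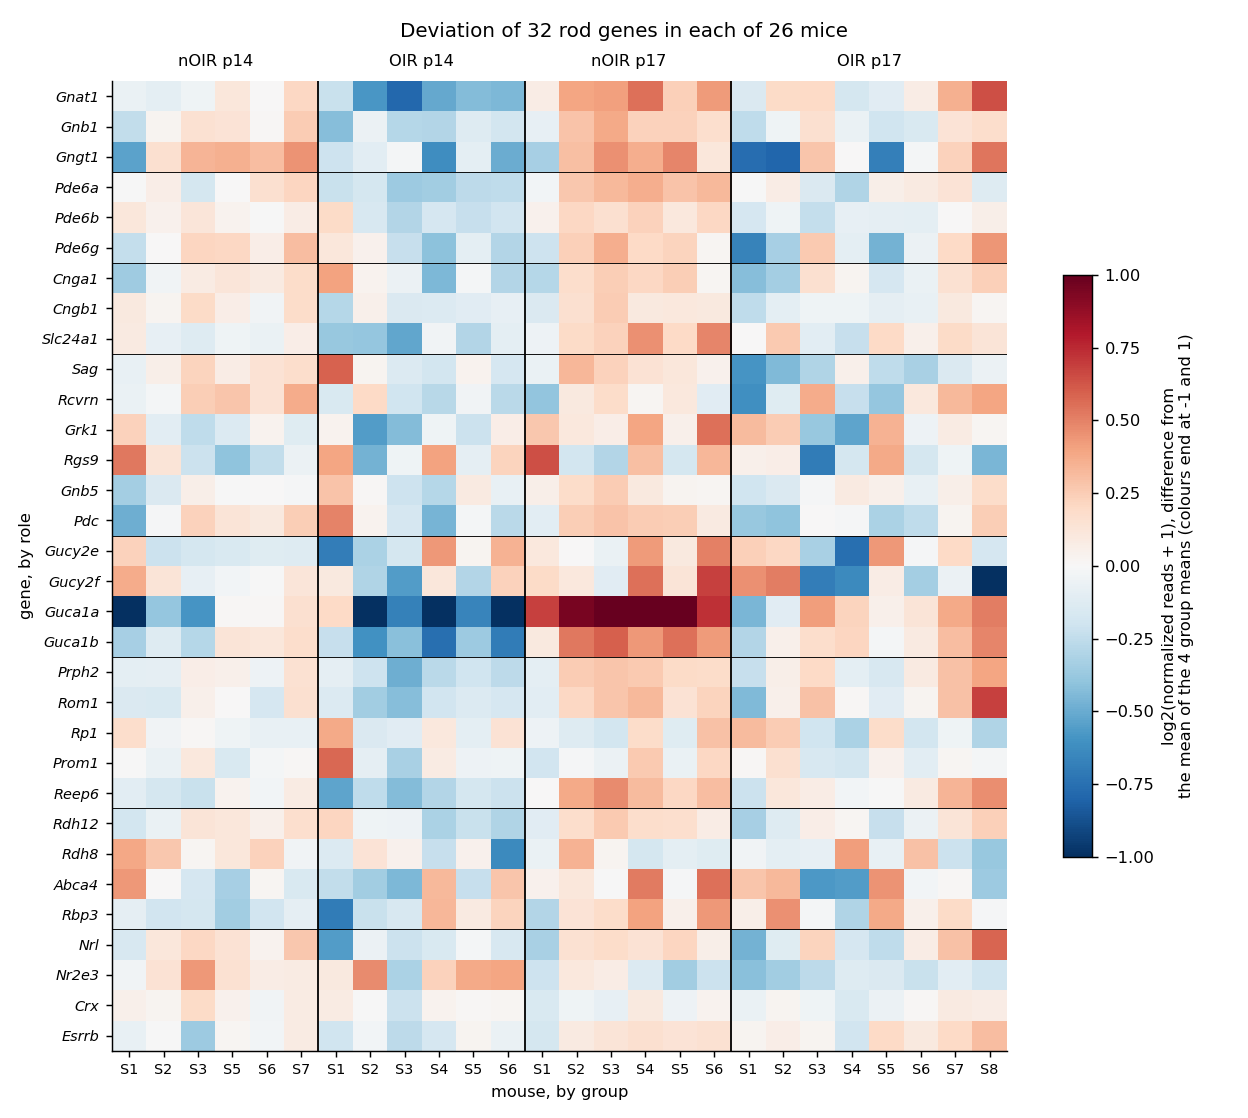
Difference of log2(normalized reads + 1) from the mean of the 4 group means, for 32 rod genes (rows, by role) in 26 mice (columns, by group); red is above and blue below, and colours end at -1 and 1. The Guca1a row changes most between groups. In most rows nOIR p17 mouse S1 is less red or bluer than the other nOIR p17 mice. Within OIR p17 some rows run opposite to others from mouse to mouse.

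Promoters were read for the 25 of 32 genes that had an entry in a RefSeq table of the GRCm38.p6 build. Shown here are the 150 bases before the start of the 6 of these genes that passed the test in at least 1 of the comparisons that follow, because Crx and Nrl, whose motifs are in capitals, regulate many rod genes. The Crx core was searched as TAATCC and an Nrl core as TGCTGA, on both strands, so that GGATTA marks a Crx core on the opposite strand. No matches overlap in the windows shown.
Guca1a (chr17:47400607-47400756, minus strand): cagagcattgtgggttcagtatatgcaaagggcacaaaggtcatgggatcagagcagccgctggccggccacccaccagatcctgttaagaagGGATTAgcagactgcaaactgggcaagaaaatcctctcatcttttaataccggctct
Sag (chr1:87803530-87803679, plus strand): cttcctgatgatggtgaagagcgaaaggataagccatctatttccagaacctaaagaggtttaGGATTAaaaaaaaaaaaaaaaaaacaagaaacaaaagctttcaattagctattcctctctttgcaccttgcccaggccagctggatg
Pde6b (chr5:108388223-108388372, plus strand): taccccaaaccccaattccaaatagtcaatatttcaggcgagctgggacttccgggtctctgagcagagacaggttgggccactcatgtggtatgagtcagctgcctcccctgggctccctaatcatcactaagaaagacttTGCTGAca
Prph2 (chr17:46910328-46910477, plus strand): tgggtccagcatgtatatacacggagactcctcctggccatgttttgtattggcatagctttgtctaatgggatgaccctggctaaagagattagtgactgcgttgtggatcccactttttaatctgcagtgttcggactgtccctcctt
Slc24a1 (chr9:64951621-64951770, minus strand): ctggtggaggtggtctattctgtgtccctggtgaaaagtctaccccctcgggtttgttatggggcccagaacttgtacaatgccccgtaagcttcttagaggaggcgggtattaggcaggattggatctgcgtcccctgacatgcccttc
Nr2e3 (chr9:59950080-59950229, minus strand): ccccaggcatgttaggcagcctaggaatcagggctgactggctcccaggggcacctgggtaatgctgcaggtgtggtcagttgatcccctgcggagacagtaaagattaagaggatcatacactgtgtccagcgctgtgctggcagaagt

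Within 250 bases before the start, 11 of the 25 genes (44%) held the Crx core, beside 7.21% of the 27025 genes in the same table. The Nrl core was in 5 of 25 (20%), beside 18.02% of all genes. These letters were absent from the windows of Prph2, Slc24a1 and Nr2e3. A match is a description of the letters only.

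At p14, the comparison of OIR with nOIR asks how rod genes stand while the central retina is short of oxygen. Gnat1, Guca1b and Pde6a were lower in OIR retinas and no rod gene was higher. Gnat1 had a log2 fold change of -0.52 (SE 0.13), Guca1b, a calcium sensor of the guanylate cyclases, had -0.46 (SE 0.12), and Pde6a, the alpha subunit of the phosphodiesterase, had -0.32 (SE 0.083). Their adjusted p-values by limma over all genes tested were 0.0093, 0.0179 and 0.0185. The 3 of 32 compare with 2.91% of all genes called lower, or 5.37% of the 9492 genes with a mean at or above that of Rdh8, the lowest of the 32. Called higher were 0 of 32, beside 3.18% of all genes. The median log2 fold change of the 32 was -0.20 and 25 of 32 were below 0. Over all genes tested the median was 0.017 and 47.8% were below 0. Over the 9492 genes at or above the mean of Rdh8 the values were -0.026 and 55.4%. Those 9492 genes share only this floor with the 32 and are not matched to them in level. With each mouse rescaled to the same total, the median of the 32 was -0.15 with 25 below 0, and after quantile normalization -0.10 with 22 below 0. Quantile normalization gives every mouse the same set of values, so that a gene differs between mice only through its rank. As 21 of the 32 are among the 100 highest genes, it can shrink their differences by construction. A call lost or gained under it, here or in the comparisons that follow, is therefore weak evidence on the call. Over all genes, equal totals gave 609 called lower and 1019 higher, in place of 790 and 862. No rod gene both passed the test and moved by over 2 on the log2 scale, in either direction, as 0.884% of all genes did.

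The p14 count moved with single mice. Without nOIR p14 mouse S7 only Gnat1 was called lower, with adjusted p-values of 0.060 for Pde6a and 0.0562 for Guca1b. Pde6a also fell short without mouse S6 of that group (adjusted p = 0.0518) and Guca1b without nOIR p14 S5 (0.0515) or OIR p14 S4 (0.0521). Without OIR p14 mouse S1, 5 rod genes were called lower, Pde6b (0.00953) and Guca1a (0.0383) being added. Without nOIR p14 S1, Gnb1 was added (0.0321). Gnat1 was called in 37 of 38 alternative fits and fell short after quantile normalization (adjusted p = 0.0683). Among the 38 are fits without a mouse from outside the groups compared, which cannot move the log2 fold change. Counts out of 38, here and in the comparisons that follow, therefore hold fits in which a call could hardly change.

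At p17, when new vessels grow, 4 rod genes were lower in OIR retinas and none was higher. Guca1a, which with Guca1b switches the cyclases on when calcium falls, had a log2 fold change of -0.79 (SE 0.20, adjusted p = 0.00543). Sag, rod arrestin, which caps the activated pigment, had -0.39 (SE 0.11, adjusted p = 0.0172). The catalytic phosphodiesterase subunits Pde6a and Pde6b had -0.28 (SE 0.078, adjusted p = 0.0126) and -0.24 (SE 0.072, adjusted p = 0.0245). These 4 of 32 compare with 5.12% of all genes called lower by limma and with 9.77% of the genes at or above the mean of Rdh8. Called higher were 0 of 32, beside 7.39% of all genes. The median log2 fold change was -0.18, beside -0.023 over all genes tested. Over the 9492 genes at or above the mean of Rdh8 it was -0.059. Of the 32, 30 were below 0, beside 63.0% of those 9492 genes. With equal totals the median was -0.12 and after quantile normalization -0.075, each with 24 below 0. Over all genes, equal totals gave 964 called lower and 2406 higher, in place of 1390 and 2005. No rod gene met both criteria, an adjusted p below 0.05 and a log2 fold change beyond 2 in size, which 2.07% of all genes met.

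Guca1a was called in all 38 alternative fits at p17. Sag fell short without nOIR p17 mouse S2 (adjusted p = 0.0558) and after quantile normalization (0.768). Pde6a fell short with equal totals (0.0628) and after quantile normalization (0.143). Pde6b fell short with equal totals (0.0826), without nOIR p17 S2 (0.0558), S4 (0.0623) or S6 (0.0543), and when all genes above 0 were tested (0.055), so that 2 genes were called without S2. Without nOIR p17 S1, 6 were called, Gnb1 (0.0406) and Guca1b (0.0262) being added. Gucy2f was called without OIR p17 S1 (0.0348) or S2 (0.031), and Guca1b without OIR p17 S8 (0.0252). Leaving out the 4 mice whose level of the lens gene Cryaa was at or above that of the excluded S4, among them OIR p17 S2, S7 and S8, gave 7 genes called lower, Gnat1 (0.0306), Guca1b (0.0285) and Reep6 (0.0365) being added.

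**Figure D2:**
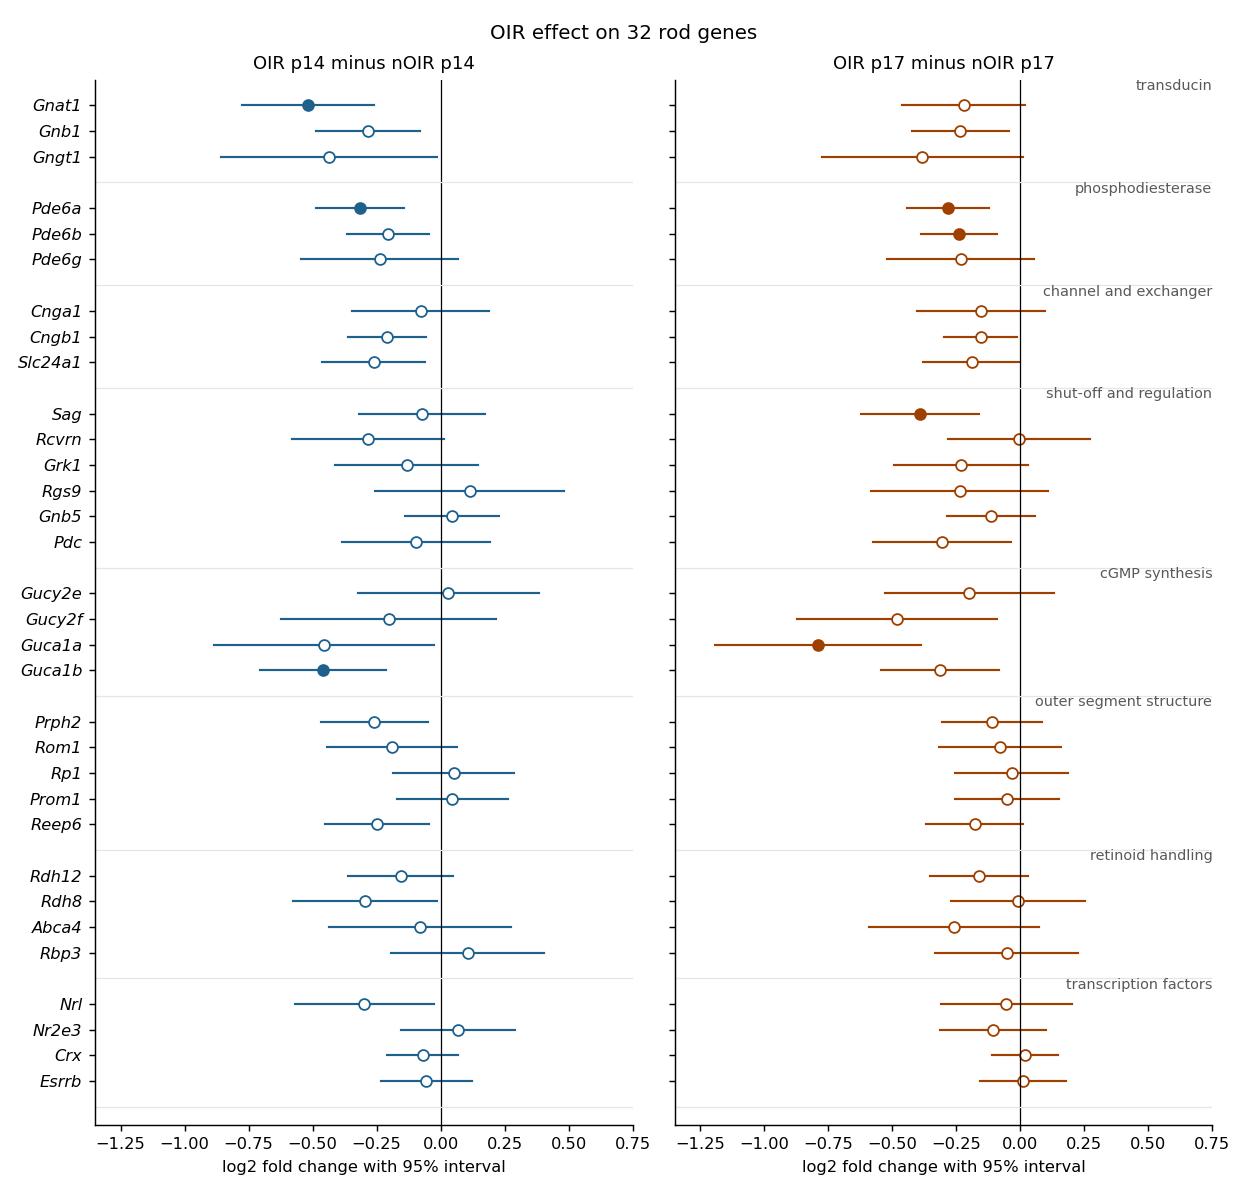
Log2 fold change of OIR against nOIR at p14 (left) and p17 (right) for 32 rod genes, with the 95% interval of the limma fit; filled points had a limma adjusted p below 0.05, and grey words give the role of the genes under them. The points lie left of 0 for 25 genes at p14 and 30 at p17, and the filled ones are Gnat1, Pde6a and Guca1b at p14 and Pde6a, Pde6b, Sag and Guca1a at p17.

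The 3 transducin genes were below 0 at both ages. Gnat1 ran from 337753 through a median of 355520 to 416541 normalized reads in nOIR p14 and from 208953 through 258255 to 308693 in OIR p14. Every OIR mouse lay below every nOIR mouse at p14, as it did for Pde6a, which makes 2 of 32 genes, beside 1.86% of all genes. The exact permutation p for Gnat1 was 0.00216, the smallest that 6 against 6 mice can give (two-sided). In nOIR p17 Gnat1 ran from 378748 through 477349 to 528600 and in OIR p17 from 319568 through 396445 to 562711, so that the groups overlapped, and the highest value of all was that of OIR p17 mouse S8. Its log2 fold change at p17 was -0.22 (SE 0.12, adjusted p = 0.268). Gnb1, the beta subunit, stood at -0.28 on the log2 scale at p14 and at -0.23 at p17. Gngt1, the gamma subunit, had -0.44 at p14 with a 95% interval from -0.86 to -0.015, and -0.38 at p17 with an interval from -0.78 to 0.011. None of these 4 values passed the test.

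The phosphodiesterase has catalytic alpha and beta subunits and an inhibitory gamma subunit. Pde6a ran from 15403 through 17812 to 20175 normalized reads in nOIR p14 and from 13505 through 14558 to 15354 in OIR p14, with no overlap. In nOIR p17 it ran from 17009 through 21434 to 22309 and in OIR p17 from 14081 through 17682 to 19123, where the lowest nOIR mouse, S1, lay inside the OIR range. It was the only rod gene called lower by limma at both ages. Pde6b ran from 78952 through 86655 to 89846 in nOIR p17 and from 64863 through 72070 to 79749 in OIR p17, so that only the highest OIR mouse and the lowest nOIR mouse crossed. At p14 its log2 fold change was -0.21 (SE 0.077, adjusted p = 0.132). There OIR p14 mouse S1 had 87243 normalized reads, above every other mouse of both p14 groups. Pde6g, the inhibitory subunit, ran from 96582 through 125850 to 141355 in nOIR p14 and from 86167 through 102136 to 123514 in OIR p14. At p17 it ran from 99137 through 132364 to 147316 in nOIR and from 71974 through 108059 to 155375 in OIR. The groups overlapped widely, and neither the p14 log2 fold change of -0.24 nor the p17 one of -0.23 passed the test.

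No channel or exchanger gene passed the test in either OIR comparison. Cnga1 and Cngb1 encode the subunits of the cyclic GMP-gated channel. For Cngb1 the p14 log2 fold change was -0.21 (SE 0.074, adjusted p = 0.106), and at p17 it was -0.15 (SE 0.070, adjusted p = 0.167). For Cnga1 the values were -0.078 and -0.15. Slc24a1, the exchanger that pumps calcium out of the outer segment, ran from 25234 through 26503 to 29318 normalized reads in nOIR p14 and from 19165 through 21805 to 26890 in OIR p14. At p17 it ran from 26529 through 31974 to 38611 in nOIR and from 23476 through 29325 to 32954 in OIR. Its log2 fold changes were -0.26 and -0.19. The groups overlapped at both ages.

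Among the 6 shut-off genes, Sag passed the test at p17 and not at p14. Sag ran from 239552 through 274455 to 317168 normalized reads in nOIR p17 and from 167236 through 206841 to 260139 in OIR p17. In nOIR p14 it ran from 239103 through 271642 to 292840 and in OIR p14 from 221612 through 242171 to 377488. The top OIR p14 value belonged to mouse S1 and lay above all other mice of the study groups, while the median was below that of nOIR p14. Its log2 fold change at p14 was -0.074 (95% interval -0.32 to 0.17). Rcvrn, the calcium sensor that restrains the pigment kinase, had -0.28 at p14 and -0.0034 at p17. Grk1, that kinase, had -0.13 and -0.23. Rgs9 and Gnb5, partners in the complex that speeds the shut-off of transducin, had 0.11 and 0.044 at p14 and -0.24 and -0.11 at p17. Pdc, phosducin, which binds transducin beta and gamma subunits, had -0.097 at p14 and -0.30 at p17 (SE 0.13, adjusted p = 0.147). Apart from Sag at p17, none of these passed the test.

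**Figure D3:**
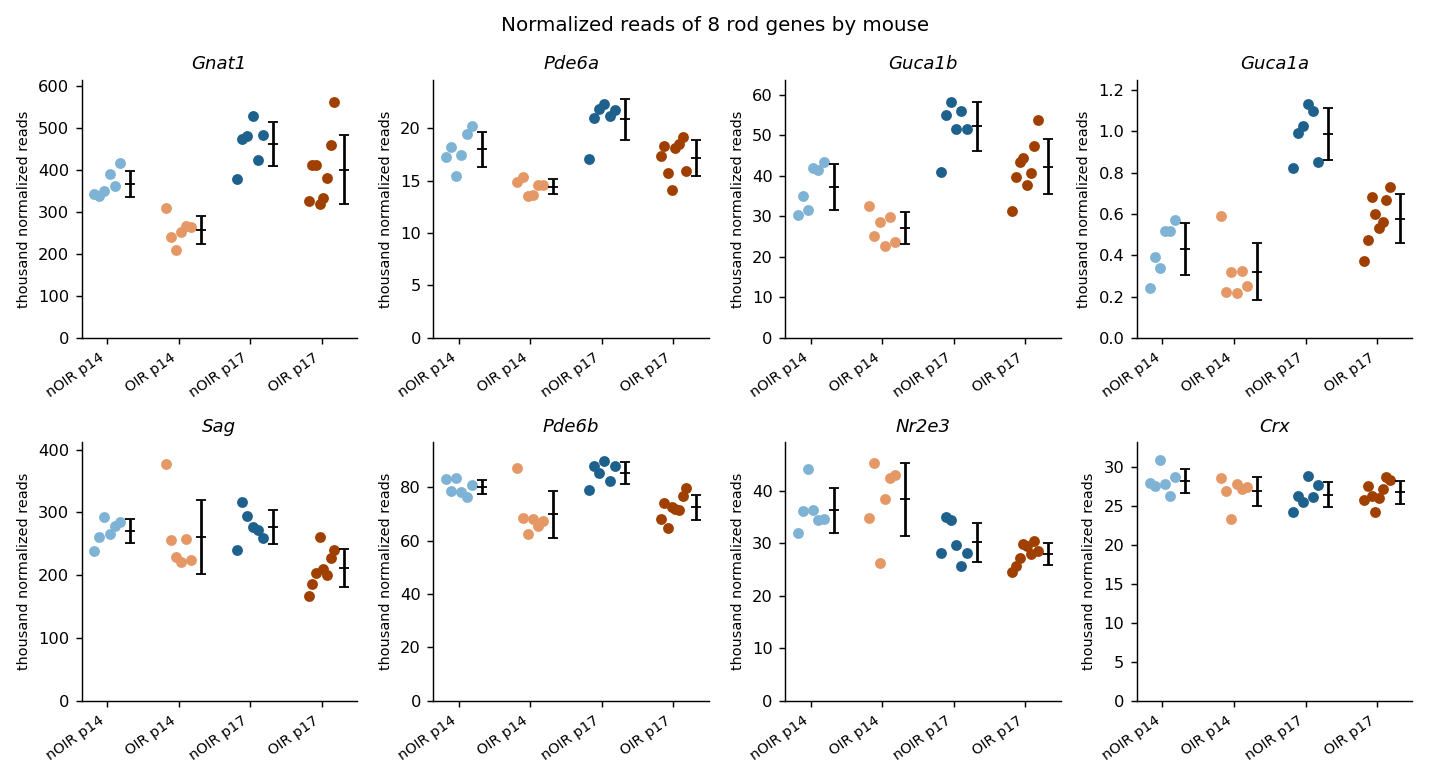
Normalized reads, divided by 1000, of 8 rod genes in 26 mice, by group; each point is 1 mouse, and the bar beside the points is the mean with its SD. The OIR p14 points of Gnat1 and Pde6a lie below all nOIR p14 points, the OIR p17 points of Guca1a lie below all nOIR p17 points, OIR p14 mouse S1 is the high point of Sag, Pde6b and Guca1a in its group, and Crx is nearly level.

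Of the genes for cyclic GMP synthesis, Guca1a ran from 825 through 1009 to 1131 normalized reads in nOIR p17 and from 373 through 580 to 733 in OIR p17. No mouse of these groups overlapped, which was so for 1 of 32 rod genes and for 1.98% of all genes, and the exact permutation p was 0.000666, the smallest that 8 against 6 mice can give (two-sided). At p14 it ran from 244 through 454 to 572 in nOIR and from 216 through 286 to 590 in OIR, with the top value again in OIR p14 mouse S1, and the log2 fold change was -0.46 (SE 0.21, adjusted p = 0.257). Guca1b was far more abundant. It ran from 30482 through 38354 to 43437 in nOIR p14 and from 22758 through 26981 to 32630 in OIR p14, where the highest OIR mouse lay above the lowest 2 nOIR mice. In nOIR p17 it ran from 41080 through 53429 to 58182 and in OIR p17 from 31299 through 42098 to 53834, with a log2 fold change of -0.31 (SE 0.11, adjusted p = 0.0687). The cyclases themselves did not pass the test: Gucy2e had 0.031 at p14 and -0.20 at p17, and Gucy2f had -0.20 at p14 and -0.48 at p17, where its 95% interval ran from -0.87 to -0.090.

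Of the outer segment structure genes, Prph2 and Rom1 encode tetraspanins of the disc rim, Rp1 binds the microtubules of the axoneme, Prom1 takes part in disc formation, and Reep6 is a membrane-shaping protein of the endoplasmic reticulum. None passed the test in either OIR comparison. Prph2 ran from 128933 through 137977 to 153202 normalized reads in nOIR p14 and from 98355 through 117076 to 129217 in OIR p14, and the groups crossed only at their ends. In nOIR p17 it ran from 128859 through 160608 to 167005 and in OIR p17 from 117731 through 145148 to 181365, with wide overlap. Its log2 fold changes were -0.26 (SE 0.10, adjusted p = 0.156) and -0.11. Reep6 had -0.25 and -0.18, and Rom1 had -0.19 and -0.078. Rp1 and Prom1 stayed near 0, with 0.051 and 0.045 at p14 and -0.033 and -0.053 at p17.

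The retinoid genes Rdh12, Rdh8 and Abca4 handle the retinaldehyde released by bleaching, and Rbp3 carries retinoids between photoreceptors and the pigment epithelium. No retinoid gene passed the test in the OIR comparisons. Rbp3, the most abundant, ran from 117770 through 131864 to 140709 normalized reads in nOIR p14, from 92218 through 146335 to 188749 in OIR p14, from 122427 through 167261 to 202574 in nOIR p17 and from 121235 through 155241 to 205787 in OIR p17. Both OIR groups spanned the whole nOIR range at their age. The log2 fold changes of Rbp3 were 0.11 and -0.053. Rdh12 had -0.16 at both ages, Rdh8 -0.29 and -0.010, and Abca4 -0.079 and -0.26.

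The transcription factor genes showed no OIR difference that passed the test. Nr2e3, which represses cone genes in rods, ran from 31929 through 35386 to 44262 normalized reads in nOIR p14, from 26320 through 40443 to 45407 in OIR p14, from 25730 through 29006 to 35132 in nOIR p17 and from 24474 through 28291 to 30423 in OIR p17. Its log2 fold changes were 0.068 at p14 and -0.11 at p17, and the OIR and nOIR groups overlapped at both ages. Nrl, which directs precursors to the rod fate, had -0.30 (SE 0.13, adjusted p = 0.239) at p14 and -0.054 at p17. Crx, the photoreceptor homeobox factor, had the narrowest intervals of the 32, with -0.070 (95% interval -0.21 to 0.068) at p14 and 0.018 (-0.11 to 0.15) at p17. Esrrb, a nuclear receptor active in rods, had -0.055 and 0.010.

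Between p14 and p17, control retinas showed how rod genes changed over 3 days of normal maturation. In nOIR mice 1 of 32 genes was called higher at p17 by limma and none lower, beside 0.158% of all genes called higher. This was Guca1a, with a log2 fold change of 1.24 (SE 0.21, adjusted p = 0.00335), from a mean of 431 ± 126 to 988 ± 126 normalized reads (SD, n = 6 each). Every p17 mouse lay above every p14 mouse, which held for 1 of 32 rod genes and for 0.814% of all genes. Guca1b had a log2 fold change of 0.49 (SE 0.12, adjusted p = 0.0732) and Reep6 0.35 (SE 0.099, adjusted p = 0.164). Guca1b was called without nOIR p17 S1 (0.0427), OIR p14 S1 (0.0486) or OIR p17 S1 (0.0425), the OIR mice entering through the shared estimate of the spread. The median of the 32 was 0.14, with 5 below 0, beside -0.0054 over all genes. With equal totals it was 0.10 with 9 below 0, and after quantile normalization 0.038 with 13. Over all genes, equal totals gave 39 called higher and 79 lower, in place of 43 and 43. The 5 below 0 were Nr2e3, with -0.26, Rdh8, Rcvrn, Crx and Nrl.

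In OIR mice the change from p14 to p17 was read in the same way. Higher at p17 were 6 of 32, beside 4.11% of all genes, and lower 1 of 32, beside 1.81%. Guca1b rose by a log2 fold change of 0.64 (SE 0.11, adjusted p = 0.000407), Gnat1 by 0.63 (SE 0.12, adjusted p = 0.000784), Guca1a by 0.91 (SE 0.20, adjusted p = 0.00356), Reep6 by 0.42 (SE 0.093, adjusted p = 0.0042), Slc24a1 by 0.35 (SE 0.092, adjusted p = 0.0183) and Prph2 by 0.32 (SE 0.095, adjusted p = 0.0401). Nr2e3 fell by 0.44 on the log2 scale (SE 0.10, adjusted p = 0.00678). In nOIR mice Gnat1 had 0.33, Slc24a1 0.28 and Prph2 0.17 over the same days, and none of these passed the test. For Gnat1 every OIR p17 mouse lay above every OIR p14 mouse, the only rod gene of which that held, beside 1.41% of all genes. Reep6 ran from 26376 through 31410 to 33732 normalized reads in OIR p14 and from 32865 through 40273 to 52498 in OIR p17, and from 32529 through 36357 to 40176 in nOIR p14 and from 38205 through 47313 to 52839 in nOIR p17. Its OIR groups crossed only where the lowest p17 mouse lay under the highest p14 mouse. The median of the 32 was 0.093 with 8 below 0, beside -0.036 and 54.6% below 0 over all genes tested. It was 0.016 after quantile normalization, with 14 below 0, 0.019 without the 4 mice of high Cryaa, 0.053 without OIR p17 S7 and 0.054 without OIR p17 S8.

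Gnat1, Guca1a, Guca1b and Nr2e3 were called in all 38 alternative fits of this comparison. Prph2 was called in 21 of 38, and fell short without any of OIR p14 S2 to S6 or OIR p17 S2, S3, S6, S7 or S8, with adjusted p-values from 0.0555 to 0.117, and without nOIR p14 S6 (0.05). Slc24a1 fell short without OIR p14 S3 (0.062). Without the 4 mice of high Cryaa, Reep6 (0.0808), Slc24a1 (0.202) and Prph2 (0.334) fell short and 3 genes were called higher. Pde6a was added without nOIR p17 S1 (0.0414) or OIR p17 S4 (0.0202), and Rom1 without OIR p17 S1 (0.0123). The ages share no mice with each other, but the 4 comparisons share groups, so the same OIR p14 values enter both the p14 comparison and this one.

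**Figure D4:**
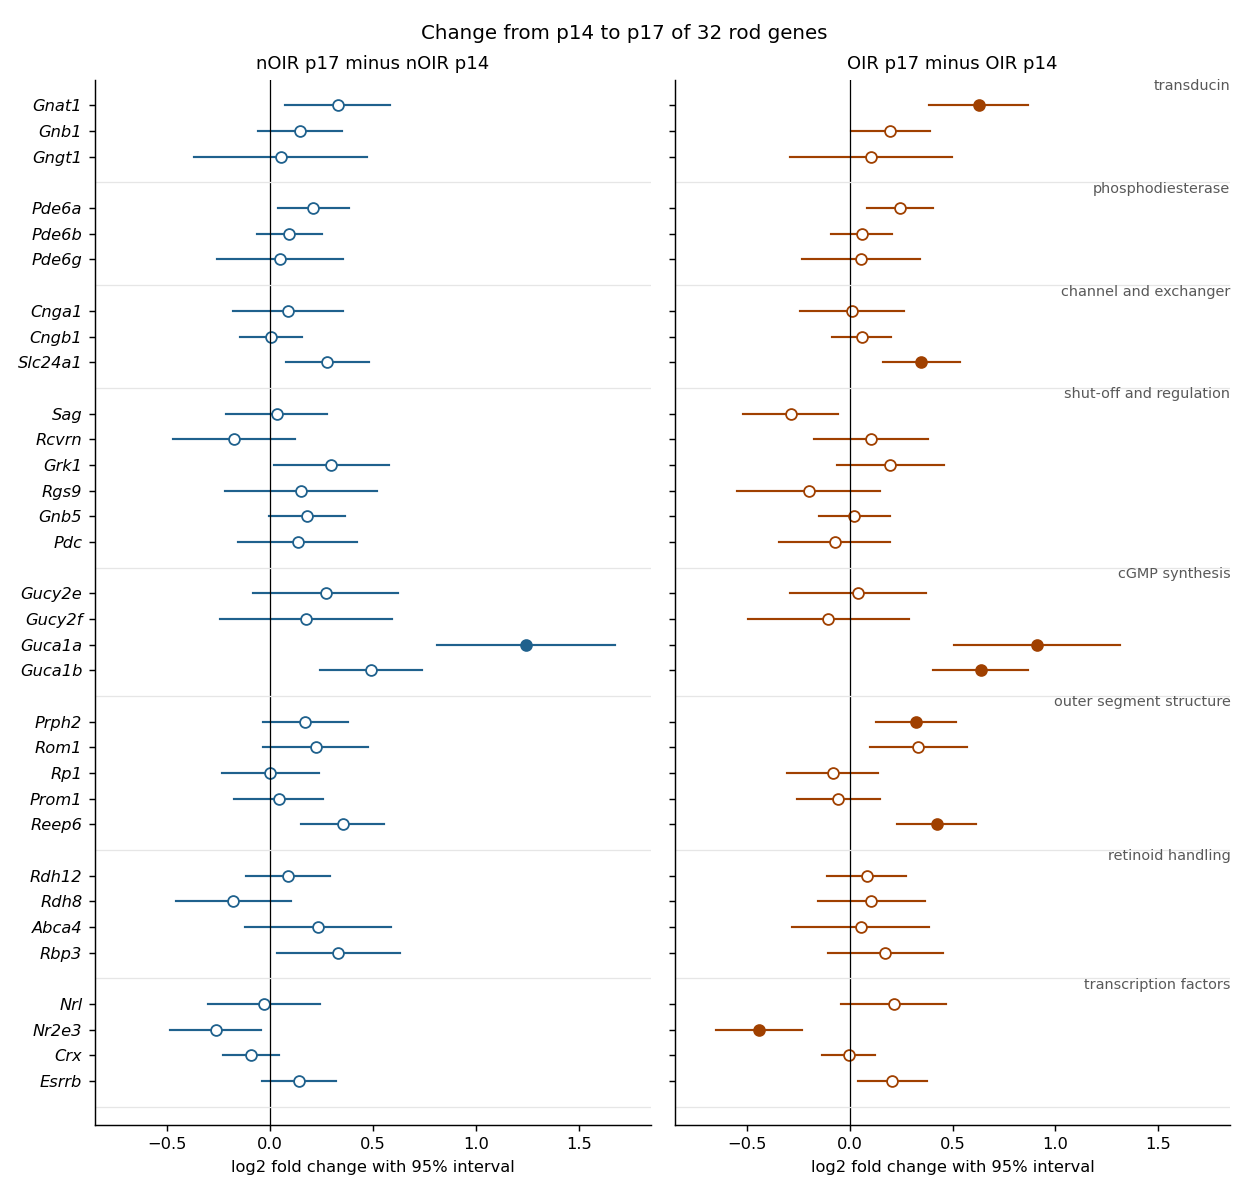
Log2 fold change from p14 to p17 in nOIR (left) and OIR (right) retinas for 32 rod genes, with the 95% interval of the limma fit; filled points had a limma adjusted p below 0.05. Guca1a is the point farthest right in both panels, it alone is filled on the left, and Gnat1, Guca1b, Reep6, Slc24a1, Prph2 and the falling Nr2e3 are filled with it on the right.

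Whether the OIR effect itself differed between p17 and p14 was tested as the difference of the effects in the same fit. This difference equals the change from p14 to p17 in OIR minus that in nOIR. No rod gene passed by limma, beside 1.58% of all genes in either direction, none had an unadjusted p under 0.05, and edgeR and DESeq2 also called 0 of 32. The smallest adjusted p-values were those of Sag, with -0.32 (SE 0.16, adjusted p = 0.507), and Gnat1, with 0.30 (SE 0.17, adjusted p = 0.572). The 95% interval ran from -0.65 to 0.019 for Sag and from -0.053 to 0.65 for Gnat1. Rgs9, with -0.35 (-0.86 to 0.16), and Guca1a, with -0.34 (-0.93 to 0.25), lay farther from 0 with wider intervals. That Gnat1 passed at p14 only and Sag at p17 only therefore does not show that either effect changed with age. Nor do the 6 genes called higher with age in OIR, beside 1 in nOIR, show that any rod gene rose more in OIR.

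Beside the 32, a list of 38 other photoreceptor genes was read in the same fits. At p14, 3 were called higher and 4 lower, with a median log2 fold change of -0.089, and at p17 3 higher and 5 lower, with a median of -0.13. The smallest adjusted p-values at p17 were those of Cerkl, a ceramide kinase-like protein, with 0.63 (adjusted p = 0.00222), Kcnj14, a potassium channel, with -0.44 (0.00526), and Fscn2, an actin-bundling protein of photoreceptors, with -0.44 (0.0134). Kcnj14 was lower by more at p14, with -1.11 (adjusted p = 1.78e-07). Of 14 cone genes, 2 were higher and 1 lower at p14 and 1 higher and 1 lower at p17, with medians of 0.042 and -0.055. The cone genes ran from -0.89 to 0.51 at p14, with 6 of 14 below 0, and from -0.65 to 0.44 at p17, with 10 below 0. Gnb3, the beta subunit of cone transducin, was the highest of them at both ages. It was higher by 0.51 at p14 (limma adjusted p = 0.000451) and by 0.44 at p17 (0.000421). Gnb1, which most cells use, was at -0.28 and -0.23. Among inner retinal neurons the medians at p17 were -0.45 for 12 ON bipolar genes, with 8 lower and 1 higher, -0.25 for 8 amacrine genes, with 4 lower, and -0.48 for 8 ganglion cell genes, with 5 lower. At p14 the numbers called lower were 1 of 12, 3 of 8 and 3 of 8. Of 8 Mueller glia genes 5 were lower and 1 higher at p14, and 6 lower and 1 higher at p17. Endothelial genes were 1 higher and 1 lower of 8 at p14, and microglia genes 2 higher of 8. No pigment epithelium gene was called at either age, and of 12 lens genes 1 was called, higher at p17. The part of these other cells in the rod gene values was not tested.

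Among mice of the same group, many of the 32 genes moved together but not all of them. The number of genes above the group mean of their log2 level ran from 8 to 25 in the mice of nOIR p14. It ran from 6 to 23 in OIR p14, from 2 to 28 in nOIR p17 and from 8 to 30 in OIR p17. The lowest count, 2, was that of nOIR p17 mouse S1, and the highest, 30, that of OIR p17 mouse S7. Over 496 gene pairs, the correlation of the deviations from the group means in 26 mice had a median of 0.27 and ran from -0.78 to 0.95, with 327 pairs above 0. These points share library, depth and scaling. Cnga1 and Pdc (0.95), Cnga1 and Rdh12 (0.94) and Pde6g and Rcvrn (0.93) followed each other most closely, whereas Rgs9 ran against Gnb1 (-0.78) and Gngt1 (-0.76), and Gucy2f against Gngt1 (-0.76). The median correlation of a gene with the other members was negative for 7 genes, Gucy2f, Rgs9, Rp1, Rdh8, Abca4, Grk1 and Gucy2e. Looked at after these values were seen, 6 of the 7 were among the 16 longer genes, with an exonic length at or above the median of 4478 bases. Pairs of shorter genes had a median correlation of 0.59, pairs of longer genes 0.28 and mixed pairs 0.083. Over the 32 genes, Spearman's rho between length and the median correlation was -0.57, a description only, as the genes were measured in the same libraries.

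The balance of longer and shorter rod genes was also read in each mouse. The mean log2 level of the 16 longer minus that of the 16 shorter genes ran from -0.88 through a median of -0.78 to -0.38 in nOIR p14 and from -0.73 through -0.66 to -0.32 in OIR p14. In nOIR p17 it ran from -0.94 through -0.74 to -0.53 and in OIR p17 from -1.08 through -0.78 to -0.36. The groups overlapped, and OIR p17 had the widest spread. At p14 the OIR log2 fold change had a median of -0.25 over the shorter genes and -0.079 over the longer ones. At p17 the medians were -0.17 and -0.19. The same split was read over genes of known length with a mean at or above that of Rdh8. It gave -0.053 and -0.00010 at p14 and -0.034 and -0.081 at p17. The part of length in the rod gene values was not tested.

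**Figure D5:**
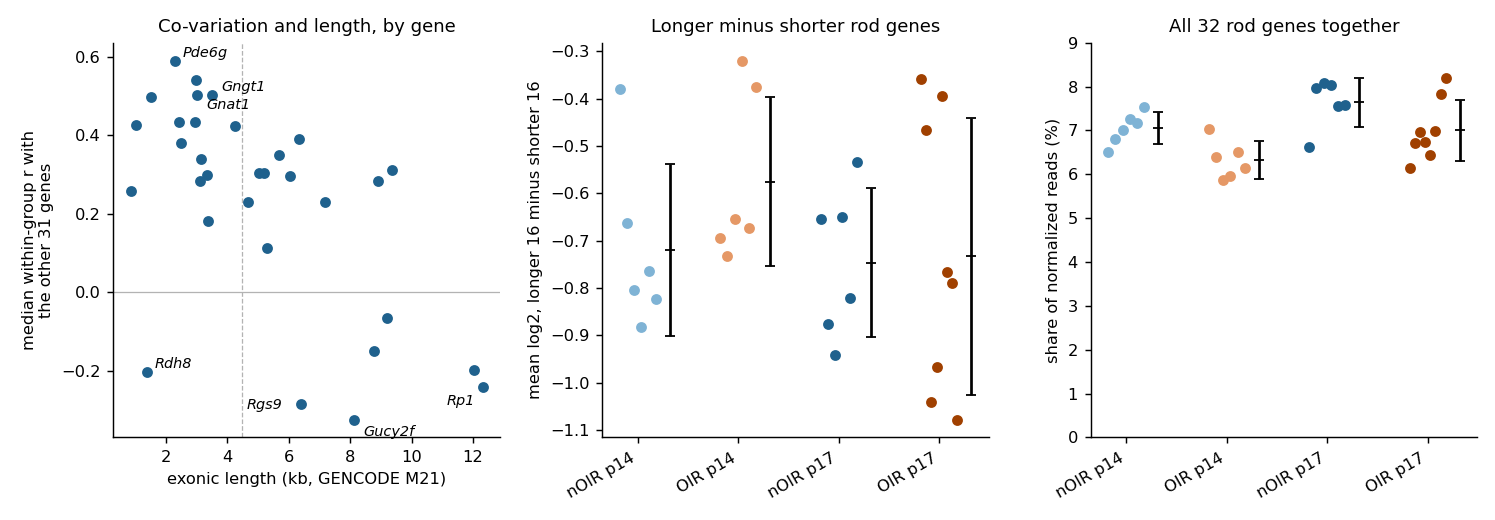
Left, median within-group correlation of each rod gene with the other 31, against its exonic length in kb, with a dashed line at the median length; middle, mean log2 level of the 16 longer minus the 16 shorter rod genes by mouse; right, share of normalized reads in all 32 rod genes by mouse, in percent. Points in the middle and right panels are mice, bars are the mean with its SD; genes below 0 on the left are Rdh8 and 6 longer genes, and nOIR p17 mouse S1 lies apart from its group on the right.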

How the data were processed

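Whole-retina RNA of 27 mice was sequenced as single reads from a kit (SMARTer v4 with Nextera XT) that keeps neither strand nor molecular identifiers. According to the methods and the submitters' notes, the authors used FastQC 0.73, STAR 2.7.8a with Gencode M28, featureCounts 2.0.1, R 4.0.3 and DESeq2 1.34, and deposited a signal per gene and mouse: read counts divided by a size factor. Columns of the authors' means, fold changes and adjusted p-values were not used. For 100% of values, 1 factor per mouse gave whole reads (tolerance 0.001), which the count tests used.

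The 32 genes and the other lists were chosen with earlier results of these data known. Named values follow a fixed rule: the called rod genes with the smallest adjusted p in each comparison and the most abundant gene of each role. The fit was limma 3.58.1 (trend) on log2(normalized reads + 1), so fold changes are on that scale, with the 4 groups in 1 model, genes with a mean of at least 1 and Benjamini-Hochberg adjustment over 27137 genes. A call is an adjusted p under 0.05. Exact permutation tests were two-sided (scipy 1.17.1). Alternatives were edgeR 4.0.16 and DESeq2 1.42.0 on whole reads, other filters, a pseudocount of 0.1, other scalings, S4 included, compared groups only, a replicate block, Cryaa as a covariate and each mouse left out. Scripts were tested on simulated data. No 2 mice of a group agreed within sampling noise (a chi-square of at least 9.39 for each degree of freedom in 79 pairs). Lengths and promoters are of GRCm38, while the reads were aligned to the M28 annotation, so only lengths, overlaps and promoter letters were taken from it.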

Additional observations from a re-analysis of the deposited data

Results flagged for a closer look

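In 14 of 132 groups of values (32 rod genes and their summed share, in 4 groups of mice), the highest or lowest mouse was separated from the rest by more than Dixon's 95% limit, which chance does in about 5% of groups. The 132 groups are correlated genes measured in the same mice, so the 14 are not separate events and are not tested against that 5%. Mouse S1 of nOIR p17 was the lowest of its group for Pde6a (17009 normalized reads), Prph2 (128860), Nrl (13743), Esrrb (2052.2) and the share of all rod genes (6.6146%). The next lowest mice had 20943 normalized reads of Pde6a and a share of 7.5539%. Mouse S1 of OIR p14 was the highest of its group for Pde6b (87243), Sag (377490, the next mouse having 257610) and Guca1a (589.59, the next having 323.43). Mouse S1 of nOIR p14 was the lowest for Gngt1 (52410) and the highest for Gucy2e (6920.3) and Rp1 (60045). The other 3 were the highest value of Rdh8 in nOIR p17 mouse S2 (552.04), the highest of Nr2e3 in nOIR p14 mouse S3 (44262) and the lowest of Crx in OIR p14 mouse S3 (23321). The 3 mice that carry 11 of these values share the number 1, which in the labels only names a mouse.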

How the results depend on the processing

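No rod gene that passed the test turned its direction under any alternative run. Of 6048 single-gene values, 5968 stayed on their side of the threshold, 41 came to pass and 39 no longer passed. Among the 6048, 200 turned sign, of which 0 passed in either fit. Many of the 6048 come from fits without a mouse from outside the groups compared, where the log2 fold change could not move. At p14 the 3 genes called lower became 5 with DESeq2, and leaving out each mouse gave 1 to 5. At p17 the 4 became 2 with equal totals and 2 after quantile normalization, 7 without the 4 mice of high Cryaa (an alternative added after seeing the data), and 2 to 6 when each mouse was left out. In nOIR from p14 to p17 the 1 gene called higher became 2 with S4 included, 2 with the compared groups only, 3 with DESeq2, and 1 to 2 when each mouse was left out. In OIR from p14 to p17 the 6 called higher became 3 without the mice of high Cryaa, and the 1 called lower became 2 after quantile normalization. The cause was not tested. The numbers S1 to S8 do not pair the mice: deviations of same-numbered mice correlated with a median of 0.014 (-0.23 to 0.33, over 0.1 in 7 of 34 pairs), and 7 of 26 mice correlated best with their own number. With that replicate block, 9 genes were lower at p17 and 3 higher in nOIR with age, while those lower at p14 became 2 and those higher in OIR with age 4, with a median of 0.038 over the 32. With Cryaa as a covariate that median was 0.060. For the difference of effects the count was 0 in every alternative run. The fit of the compared groups only was not run for it, since it needs all 4 groups. The lowest rod gene, Rdh8, had a mean of 438 normalized reads, and the groups held 6 to 8 mice, which limits the precision.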
